A study of Mus musculus with 23 samples.

Results

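The 30 nuclear receptor genes described here were followed through 23 ATAC-seq libraries of mouse liver macrophages, blood monocytes and cultured macrophages. ATAC-seq cuts accessible DNA with a transposase, so each deposited peak is a stretch of open chromatin, and its normalised tag count is the number of sequenced tags in it scaled to a common library size. Peaks of all 23 lists that overlapped by at least 1 bp were merged into 155039 regions. A region was given to a receptor gene when that gene's body was the nearest protein-coding gene body within 50000 bp, and 444 regions met this rule, with at least 1 for each of the 30 genes. By position, 28 of them overlapped a gene start, 322 lay elsewhere inside a receptor gene and 94 lay outside. A further gene was equally near in 13 cases. The measure is chromatin near the receptor genes, not their RNA or protein, and in bulk samples fewer cells of a type and less signal per cell cannot be told apart.

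The repopulation experiment held 2 libraries of Ly6C-high monocytes from the blood of untreated C57BL/6J mice, 3 of repopulating liver macrophages at 24 h after diphtheria toxin, 2 of the same at 48 h, and 2 of Kupffer cells, which are macrophages resident in the liver, from mice given PBS. The liver cells came from Clec4f-cre/Rosa26iDTR mice, in which a Cre under Clec4f, a Kupffer cell lectin gene, opens expression of the toxin receptor so that the toxin kills Kupffer cells. The PBS mice carried both alleles too, whereas the blood donors carried neither. The LXR alpha experiment held 2 libraries each of TIM4-negative and TIM4-positive Kupffer cells of Nr1h3 flox/flox Clec4f-cre +/- mice (TIM4 is a surface receptor of resident Kupffer cells, encoded by Timd4), and 2 of TIM4-positive cells of Nr1h3 flox/flox mice as controls. The Smad4 experiment held 2 libraries titled Smad4 knockout and 2 titled control. Their strain fields say the opposite, with Smad4 flox/flox for the libraries titled knockout and Smad4 flox/flox Clec4f-cre +/- for those titled control, so both groups are called by their titles and every direction given between them would turn round if the strain fields were right. The culture experiment held bone marrow-derived macrophages of C57BL/6J mice grown for 4 days, 2 libraries with DLL4, a Notch ligand, for 24 h and 2 without it. Titles of the blood and repopulation libraries carry mouse numbers, those of the Smad4 experiment end in numbers that differ between libraries and are not explained, and nothing says whether the replicates of the other experiments came from separate animals, so p-values measure the spread between these libraries.

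Nuclear receptors are transcription factors, most of which bind DNA directly. Their activity is usually set by a small lipid-soluble ligand, such as a steroid, an oxysterol, a fatty acid, a retinoid or a thyroid hormone. Many of them pair with a retinoid X receptor, while others act as homodimers or, as orphan receptors, without a known hormone. Many, but not all, exchange corepressors for coactivators when ligand binds. In liver macrophages LXR alpha, the oxysterol receptor encoded by Nr1h3, is known for its part in keeping the Kupffer cell programme, and receptors for fatty acids, glucocorticoids and retinoids are known regulators of macrophage lipid handling and inflammation.

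The promoters of 4 members are shown because the results turn on open regions at these gene starts. They come from RefSeq on GRCm38.p6, run 5′ to 3′ on the gene's strand over the 250 bases before and 50 bases after the annotated start, and capitals mark the bases that lie inside the merged ATAC region there, which for each of the 4 was called in all 23 libraries.
Nr3c2 (mineralocorticoid receptor, chr8:76902080-76902379, plus strand): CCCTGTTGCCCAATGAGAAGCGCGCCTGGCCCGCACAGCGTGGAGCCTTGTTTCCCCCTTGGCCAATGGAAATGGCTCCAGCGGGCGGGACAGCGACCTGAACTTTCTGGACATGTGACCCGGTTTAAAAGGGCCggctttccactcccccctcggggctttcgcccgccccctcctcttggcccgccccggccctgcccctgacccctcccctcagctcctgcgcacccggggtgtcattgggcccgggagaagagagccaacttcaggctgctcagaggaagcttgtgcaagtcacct
Nr1h3 (LXR alpha, chr2:91195067-91195366, minus strand): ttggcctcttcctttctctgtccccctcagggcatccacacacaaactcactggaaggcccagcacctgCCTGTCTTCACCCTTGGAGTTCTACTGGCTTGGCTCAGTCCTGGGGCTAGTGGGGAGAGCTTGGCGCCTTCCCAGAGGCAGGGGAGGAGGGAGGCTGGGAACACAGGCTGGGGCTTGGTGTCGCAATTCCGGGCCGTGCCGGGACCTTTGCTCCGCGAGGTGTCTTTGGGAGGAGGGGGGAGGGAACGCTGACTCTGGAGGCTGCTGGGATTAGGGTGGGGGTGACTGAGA
Rara (retinoic acid receptor alpha, chr11:98937446-98937745, plus strand): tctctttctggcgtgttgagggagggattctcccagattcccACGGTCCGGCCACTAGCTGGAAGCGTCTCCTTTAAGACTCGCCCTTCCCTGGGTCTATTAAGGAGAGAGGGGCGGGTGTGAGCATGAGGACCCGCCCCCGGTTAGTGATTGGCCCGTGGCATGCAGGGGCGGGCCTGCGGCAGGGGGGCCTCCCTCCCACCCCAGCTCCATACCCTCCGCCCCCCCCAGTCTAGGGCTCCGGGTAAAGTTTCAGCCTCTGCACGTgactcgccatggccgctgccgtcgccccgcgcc
Thrb (thyroid hormone receptor beta, chr14:17660710-17661009, plus strand): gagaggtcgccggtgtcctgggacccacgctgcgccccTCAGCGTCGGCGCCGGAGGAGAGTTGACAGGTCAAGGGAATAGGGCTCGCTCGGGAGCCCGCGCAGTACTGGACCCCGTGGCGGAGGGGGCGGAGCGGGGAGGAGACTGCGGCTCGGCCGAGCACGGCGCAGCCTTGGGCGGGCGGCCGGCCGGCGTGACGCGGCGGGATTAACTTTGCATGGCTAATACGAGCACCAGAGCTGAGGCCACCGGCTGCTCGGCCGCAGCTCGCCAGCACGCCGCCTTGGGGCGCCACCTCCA

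Of these 300 bases, 135 lay inside the region at Nr3c2, 231 at Nr1h3, 225 at Rara and 262 at Thrb. On both strands, 4 motifs were looked for. The receptor core site AGGTCA is in the Thrb promoter shown, in 10 of the 41 promoters listed for 28 of the members (24.4%) and in 16.3% of all 32851 promoters. A direct repeat of it, 2 copies on 1 strand with 4 bases between them, is in 0 of the 41 and in 0.0152% of all. The E-box CACGTG is in the Rara promoter shown, in 4 of the 41 (9.76%) and in 7.15% of all, and the GC box GGGGCGGGG is in 8 of the 41 (19.5%) and in 11.4% of all. Neither the Nr3c2 nor the Nr1h3 promoter shown holds any of these letters, and a match is a run of letters, not a bound site.

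The libraries held 10.43 to 18.36 M tags, with 15.41% to 54.74% of tags in peaks and 48775 to 104206 peaks per list. Of 13 Kupffer identity genes, all 13 had a peak in the PBS Kupffer cells and 11 in blood monocytes, where Timd4 and Pcolce2 had none, and Timd4 had none in 24 h and 48 h macrophages either. Of 8 monocyte genes, all 8 had a peak in blood monocytes and 6 in PBS Kupffer cells, where S100a4 and Chil3 had none. Of 8 hepatocyte genes, 2 to 5 had a peak in a library, summing to 58.6 to 265.6 tags. Among them Serpina1a, Cyp2e1 and Fgb had no peak in any group. Of 7 T and NK cell genes, 4 to 7 had a peak, summing to 198.2 to 1268.5 tags. Outside the cultured macrophages the T cell gene Cd3g had none. Endothelial genes had peaks in every group, with 6 to 8 of 8 genes.

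Open regions near the receptor genes were about as widely shared as open regions in general. Of the 444 regions, 78 (17.57%) were called in all 23 libraries, against 17.17% of all regions, and 80 (18.02%) in a single library, against 16.74%. Per library, they numbered 180 ± 9.90 (SD, n = 2) in blood monocytes, 189.3 ± 9.29 (n = 3) in 24 h macrophages, 226 ± 11.3 (n = 2) in 48 h macrophages and 193.5 ± 9.19 (n = 2) in PBS Kupffer cells. In the LXR alpha experiment there were 224.5 ± 3.54 in TIM4-negative knockout cells, 165 ± 4.24 in TIM4-positive knockout cells and 199.5 ± 23.3 in controls (SD, n = 2 each). Cells titled Smad4 knockout had 167 ± 17.0 and those titled control 193.5 ± 20.5, and cultured macrophages had 264.5 ± 4.95 with DLL4 and 259.5 ± 36.1 without (SD, n = 2 each). These counts moved with the length of the lists: with only the 48775 strongest peaks of each library kept, the group means lay between 126.5 and 161. As a share of a library's own regions, receptor regions made up 0.264% and 0.265% in the blood monocyte libraries and 0.304% and 0.311% in PBS Kupffer cells.

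**Figure D1:**
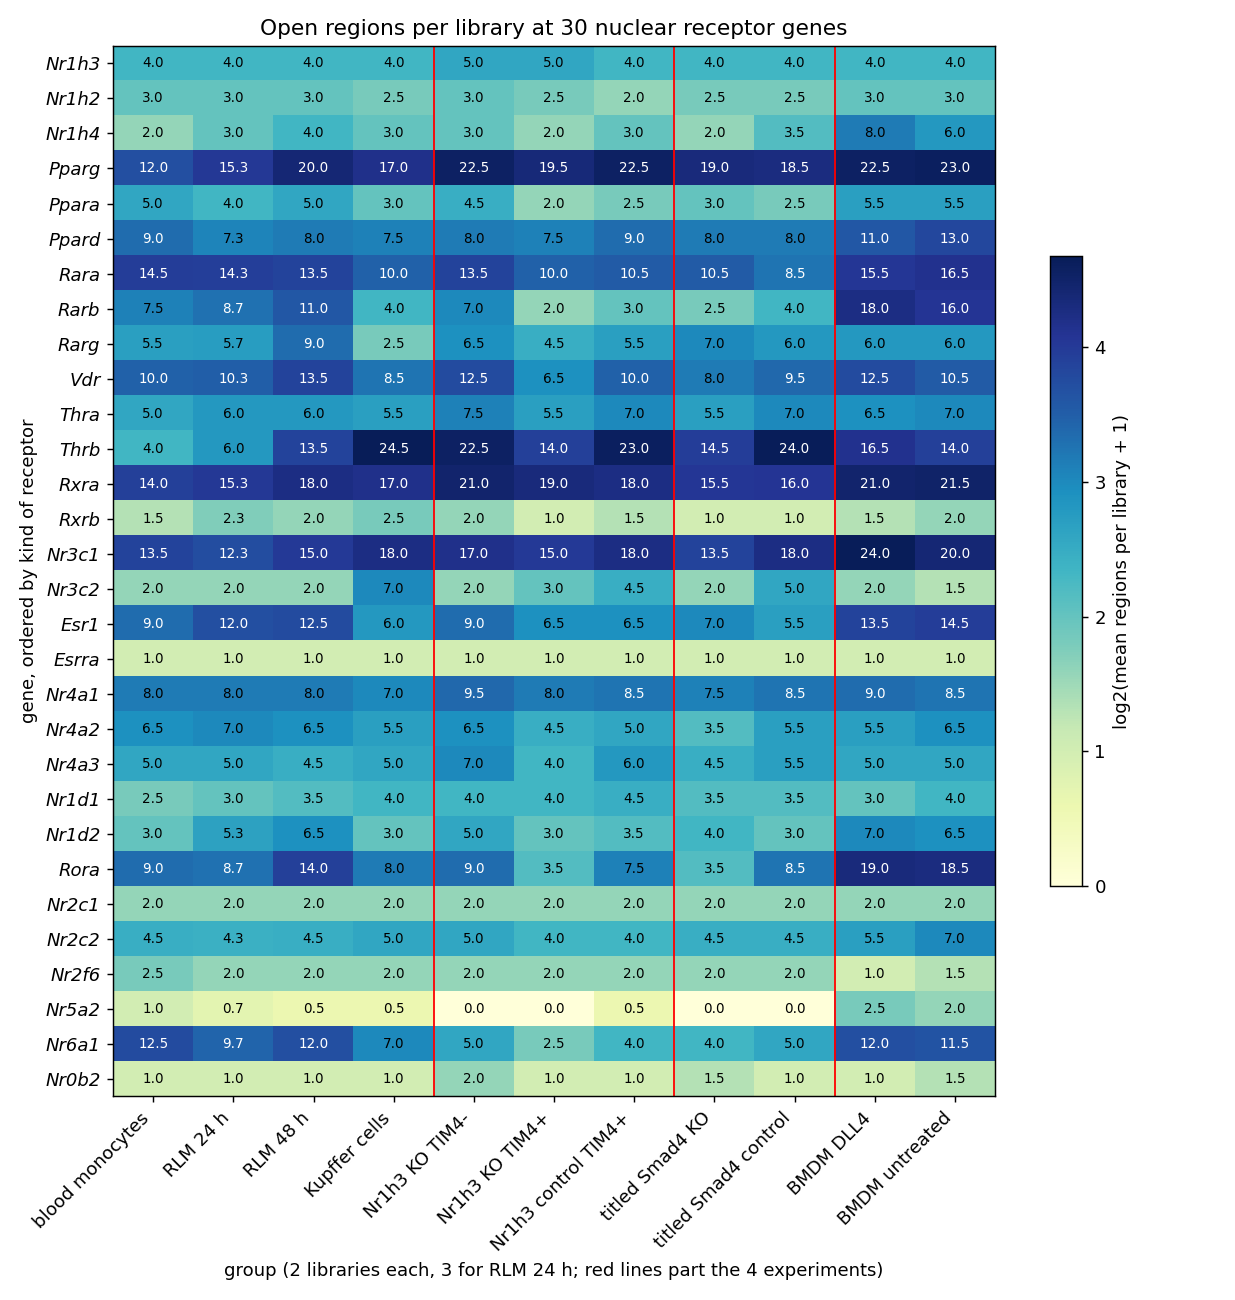
Heat map of the mean number of open regions per library (printed number; colour on a log2 scale) for the 30 receptor genes, ordered by kind of receptor, in the 11 sample groups, with red lines between the 4 experiments. Thrb has 4 in blood monocytes and 24.5 in Kupffer cells, while Esrra has 1 and Nr2c1 has 2 in every group.

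By role, the thyroid hormone receptor gene Thrb and the RXR gene Rxra had 42 regions each over all libraries, the fatty acid receptor gene Pparg had 39, the clock receptor gene Rora 33, the glucocorticoid receptor gene Nr3c1 32 and the retinoic acid receptor gene Rarb 29. The estrogen receptor gene Esr1 had 24, Rara 22, and Vdr, the vitamin D receptor gene, and Ppard 19 each. The orphan receptor gene Nr6a1 had 17, Rarg and Nr4a1 13 each, Nr4a2 11, and Nr1h4 (bile acid receptor), Thra, Nr4a3 and Nr2c2 10 each. Nr3c2 and Nr1d2 had 8 each, Ppara 6, Nr1h3 and Nr1d1 5 each, Nr5a2 4, Nr1h2 (LXR beta), Rxrb and Nr2f6 3 each, Nr2c1 and Nr0b2 2 each and Esrra 1. Nr5a2, an orphan receptor gene known for bile acid and steroid metabolism, had no region in any library of the Nr1h3 knockout groups or of the Smad4 experiment.

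Thrb had the widest spread of region numbers. Its regions numbered 5 and 3 in the blood monocyte libraries, 6, 7 and 5 at 24 h, 12 and 15 at 48 h, and 25 and 24 in PBS Kupffer cells. They numbered 25 and 20 in TIM4-negative and 12 and 16 in TIM4-positive Nr1h3 knockout libraries, against 26 and 20 in controls, 11 and 18 in libraries titled Smad4 knockout against 20 and 28 in those titled control, and 17 and 16 with DLL4 against 17 and 11 without. All regions of a library numbered 65360 and 70809 in blood and 62750 to 68026 at 24 h. At 48 h there were 73920 and 82996, and in PBS Kupffer cells 61439 and 64385. TIM4-negative knockout cells had 67433 and 67581, TIM4-positive ones 48017 and 53133, and their controls 64511 and 57405. Libraries titled Smad4 knockout had 48526 and 56397, those titled control 59597 and 66371, and cultured ones 84454 to 102945. Nr3c2, the mineralocorticoid receptor gene, had 2 regions in each blood, 24 h and 48 h library and 8 and 6 in PBS Kupffer cells. It had 2 per library in TIM4-negative and 3 in TIM4-positive Nr1h3 knockout cells, against 5 and 4 in the control libraries, and 2 in cells titled Smad4 knockout against 5 and 5. Rarb went the other way, with 7.5 regions on average in blood monocytes, 8.7 at 24 h, 11 at 48 h and 4 in PBS Kupffer cells, and most in culture, with 18 with DLL4 and 16 without.

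Of the 30 genes, all but Rarb and Nr5a2 had a region called in all 23 libraries. For Rxra, Nr1h3, Nr4a1, Nr1d1, Nr3c1, Pparg and Rora, the one with the most tags among such regions is described. That of Rxra (chr2:27740269-27740520, inside the gene) had 107.4 tags in the lowest library, 263.8 in the median one and 687.5 in the highest. Its group mean was highest in TIM4-negative Nr1h3 knockout cells, at 663.8 ± 33.6, and lowest in blood monocytes, at 132.0 ± 34.7 (SD, n = 2 each). Nr1h3 (chr2:91196743-91197165, inside) ranged over 39.1, 85.4 and 205.4 tags for the lowest, median and highest library, again with the TIM4-negative knockout cells highest, at 201.7 ± 5.23, and blood monocytes lowest, at 45.3 ± 8.77. Both genes thus had the same groups at the ends of the order. Nr4a1, an orphan receptor gene induced early by many stimuli, had 149.0, 306.3 and 518.0 tags at chr15:101246312-101246666 outside the gene. Nr1d1, a heme-binding repressor of the clock, had 111.8, 252.3 and 348.8 at chr11:98773883-98774148. Nr3c1, the glucocorticoid receptor gene, had 85.4, 192.8 and 355.2 at its most open common region inside the gene on chromosome 18. Their highest group means were in TIM4-negative knockout cells for Nr4a1 (499.4 ± 26.4) and in DLL4-treated cultures for Nr1d1 (334.5 ± 20.3) and Nr3c1 (318.7 ± 24.0). Pparg (chr6:115375332-115375582, inside) had 18, 54.5 and 147.3 tags and Rora (chr9:69289635-69289960, inside) 10.2, 46.5 and 174.4. Both were low in PBS Kupffer cells, at 23.9 ± 8.27 for Pparg and 21.5 ± 6.22 for Rora, and higher in blood monocytes, at 118.8 ± 40.3 and 99.9 ± 34.2. These are tag counts as deposited, which also carry the differences between libraries in the share of tags in peaks.

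Groups were compared at regions called in every library of both, on log2(normalised tag count + 1) with each library centred on its median over those regions. A region is said here to have risen or fallen when its limma p, adjusted by Benjamini-Hochberg over all such regions of the comparison, was under 0.05. Centring matters because the libraries' medians differed between groups, by up to 0.75 on the log2 scale. Of 246 receptor regions tested at least once, 135 passed in none of the 9 comparisons and 48 in 1. The most, 7 comparisons, was reached by the 2 Nr3c2 regions described next. Comparisons that use the same libraries are not independent of each other, and every group of the repopulation and LXR alpha experiments serves in more than 1.

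Nr3c2, which encodes the receptor for aldosterone that also binds glucocorticoids, carried the widest swings. Its gene-start region (chr8:76901920-76902214) had 76.5 and 95.1 tags in blood monocytes, 196.6, 110.8 and 68.3 at 24 h, 78.4 and 116.6 at 48 h, and 376.3 and 315.4 in PBS Kupffer cells. The Kupffer libraries lay above all 7 others of that experiment. It had 19.4 and 18 tags in TIM4-negative and 44.7 and 64.2 in TIM4-positive Nr1h3 knockout cells, against 225.6 and 191.5 in their controls. Cells titled Smad4 knockout had 23.4 and 37.8, against 128.4 and 158.0 in those titled control. In both experiments the groups did not overlap. Cultured macrophages had 253.6 and 249.7 with DLL4 and 209.5 and 184.8 without. A second region (chr8:76899036-76899353), called the inner one below, lies inside the annotated gene body, which begins at 76898083. It is 5′ of the gene-start region. This second region had 13 and 28.2 tags in blood monocytes and 88.9, 37.2 and 30.3 at 24 h. At 48 h it had 41.8 and 42.5, and in PBS Kupffer cells 154.5 and 145.7. It had 21.8 and 18.5 in TIM4-negative and 20.4 and 28.7 in TIM4-positive knockout cells, against 94.9 and 73.9 in controls, and 7.26 and 28.5 in cells titled Smad4 knockout, against 47.8 and 72.7. No peak was called there in cultured macrophages.

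**Figure D2:**
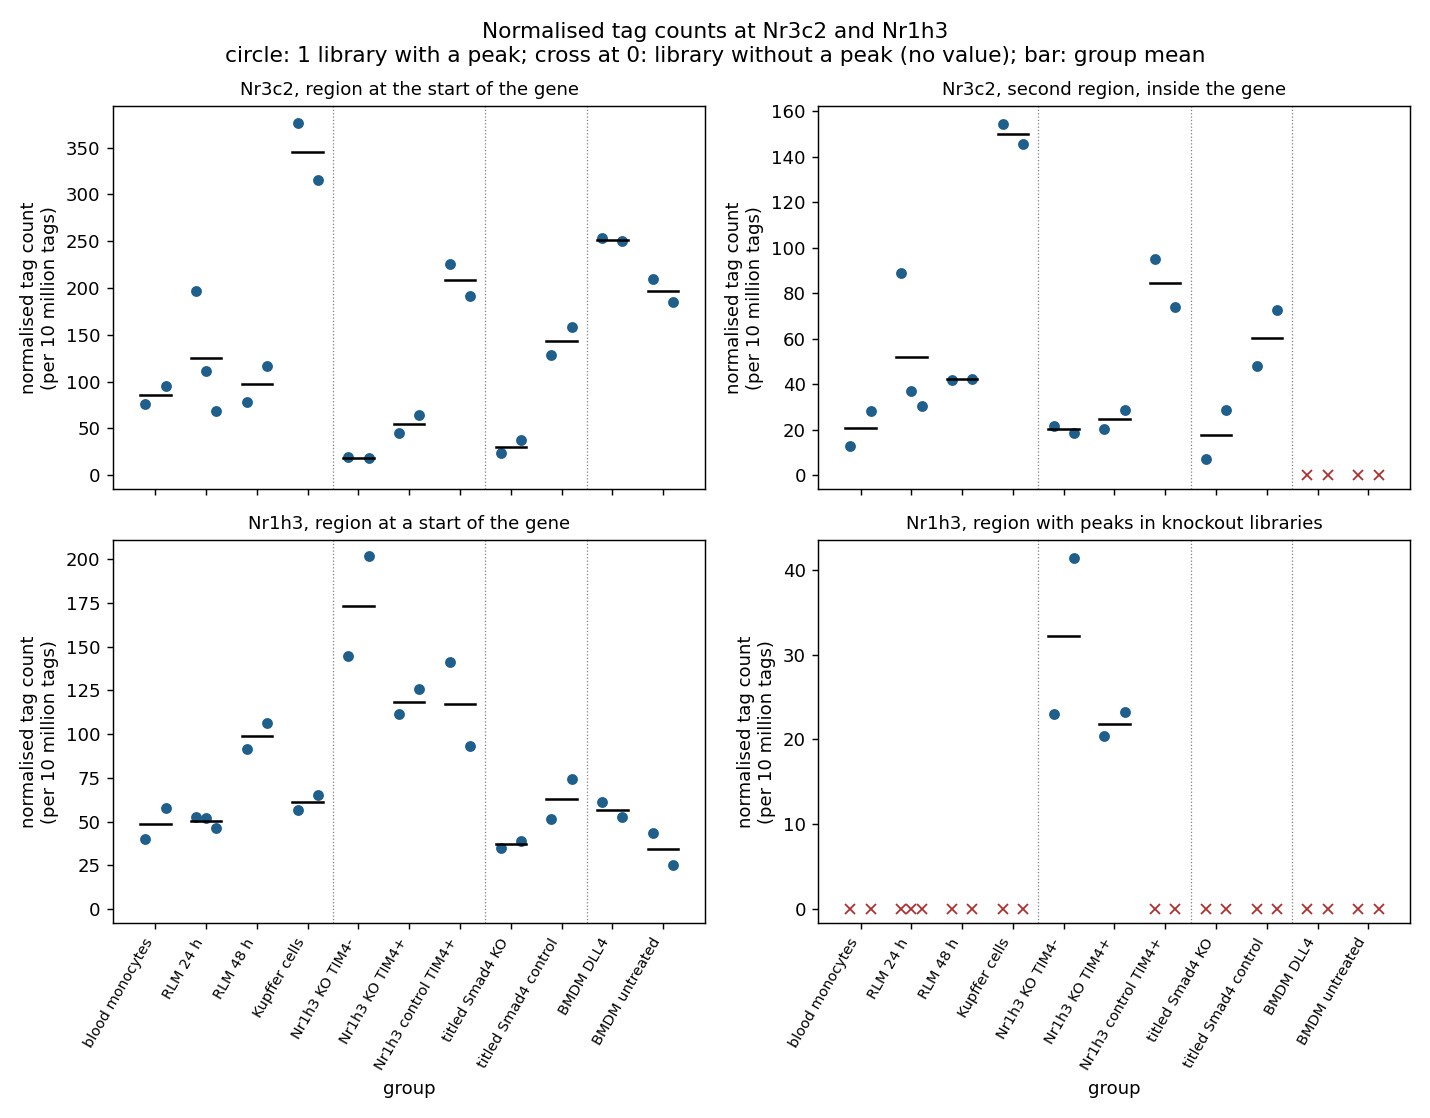
Normalised tag counts (linear axis) at 2 regions of Nr3c2 and 2 of Nr1h3 in each library of the 11 groups. Circles are libraries with a peak, crosses at 0 libraries without one, and bars group means. At the Nr3c2 gene start the PBS Kupffer libraries reach 376.3 and 315.4 tags and the TIM4-negative Nr1h3 knockout libraries 19.4 and 18.

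The 24 h macrophages were compared with blood monocytes for the first changes in the liver, and receptor regions moved about as often as all regions. Of 130 shared regions, 27 were higher and 13 lower, together 30.8%, against 26.0% of all 45312 regions, with 16.7% higher and 9.33% lower. The 40 regions belonged to 18 genes. The uncentred fit had 11 higher and 18 lower, and quantile normalisation 19 and 18, so the balance of directions rests on the scaling. The median over receptor regions was 0.17 log2, against 0.09 over all.

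The retinoic acid receptors led the losses. Rara (chr11:98952630-98953078, inside) had 29.0, 29.1 and 20.9 tags at 24 h, against 109.1 and 164.2 in blood monocytes (log2 fold change -2.05, SE 0.255, limma adjusted p = 7.1e-07). Rarg, at a gene start (chr15:102246414-102246660), had 41.2, 34.5 and 53.1, against 137.6 and 195.9 (-1.67, SE 0.229, limma adjusted p = 3.2e-06). The groups were apart at both, and all 3 shared Rarg regions fell. Among gains, Esr1, the estrogen receptor gene, had 78.6, 80.8 and 72.1 tags at chr10:4601141-4601437 outside the gene, against 24.4 and 38.8 (1.56, SE 0.246, limma adjusted p = 2.1e-05). Pparg, whose protein drives fatty acid uptake and storage, had 43.1, 41.8 and 43.6 inside the gene, against 14.7 and 19.7 (1.55, SE 0.302, limma adjusted p = 0.0003). Nr4a2, an orphan receptor gene of the NR4A family, had 256.5, 274.2 and 169.8, against 78.1 and 157.9 (1.30, SE 0.178, limma adjusted p = 3e-06). Ppara, the receptor gene for fatty acid oxidation, had 30.0, 20.9 and 28.5 at a gene start, against 9.77 and 13.4 (1.39, SE 0.332, limma adjusted p = 0.0023). All 24 h libraries were above both blood libraries at these 4 regions.

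Nr1h3 rose at 1 of its 4 shared regions (chr2:91196743-91197165), with 98.3, 75.4 and 75.9 tags at 24 h, against 39.1 and 51.5 in blood monocytes (1.13, SE 0.226, limma adjusted p = 0.0004). Nr3c2 rose by 1.5 inside the gene (SE 0.349, limma adjusted p = 0.0018). Its start region passed too (0.68, limma adjusted p = 0.036), but 1 of the 24 h libraries lay below both blood libraries, and the call ended without centring (limma adjusted p = 0.28), under quantile normalisation (0.061) and without either blood library or 24 h replicate 1 or 2 (up to 0.38). Thrb had 58.0, 52.7 and 35.1 tags against 18.7 and 35.9, overlapping by 1 library (1.11, SE 0.295, limma adjusted p = 0.0055). Ppard, the third fatty acid receptor gene, had 19.7, 11.8 and 19 against 36.6 and 53.6 (-1.11, SE 0.328, limma adjusted p = 0.012), Vdr 13.1, 15.4 and 19 against 35.8 and 45.8 (-1.05, SE 0.327, limma adjusted p = 0.017), and Nr4a1 14.0, 12.7 and 21.8 against 30.1 and 47.9 (-0.95, SE 0.338, limma adjusted p = 0.036). Nr4a3, Rxra, Nr1d2, Nr1h2, Nr6a1 and Nr1d1 also had a region that rose, by 0.38 to 0.90 log2. Calls of 10 of the 18 genes held whichever library was left out, and those of 8 of them in every alternative too. Without centring the calls of Thrb (limma adjusted p = 0.074), Rxra (0.26), Nr1d2 (0.061), Nr1h2 (0.14), Nr6a1 (0.33) and Nr1d1 (up to 0.79 over the alternatives) ended. Without blood monocyte replicate 1 the Nr3c2 (limma adjusted p = 0.09) and Thrb (0.13) calls ended. Those of Ppard and Vdr ended without either blood library, and without 24 h replicate 2 for Ppard and replicate 1 for Vdr, with p up to 0.13, that of Nr4a1 without either blood library or 24 h replicate 1 or 2 (up to 0.25), that of Rxra without any 1 of the 5 libraries (up to 0.32), that of Nr6a1 without blood replicate 2 (0.082) and that of Nr1d1 without blood replicate 2 or 24 h replicate 1 or 2 (up to 0.57). Monocyte marker genes summed to 1214.9 to 1450.2 tags at 24 h, against 2067.6 to 2515.3 in blood monocytes, and Kupffer identity genes to 3109.2 to 4292.6, against 1908.5 to 2887.5. The part of these marker genes in the differences was not tested. Called in all 24 h and no blood library were 10 regions (3.97% of 252), against 3.02% of all, and the reverse also held for 10, against 4.49% of all. Lists of equal length gave 10 (5.43% of 184) and 7 (3.80%), against 4.18% and 4.76% of all.

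Between 24 h and 48 h, 7 of 144 shared receptor regions moved. Of these, 4 were higher and 3 lower at 48 h, together 4.86%, against 5.44% of all 48434 regions, with 1.92% higher and 3.53% lower. Without centring the split was 7 and 0. Rxra, the common heterodimer partner, rose at 3 of 10 regions. Just outside the gene (chr2:27763448-27763714) it had 92.4 and 71.1 tags at 48 h, against 23.4, 25.4 and 18 at 24 h (1.67, SE 0.286, limma adjusted p = 0.0014), with both 48 h libraries above all others. This call ended without 48 h replicate 1 (limma adjusted p = 0.086). The Nr1h3 start region (chr2:91194580-91195297) had 91.5 and 106.3 tags at 48 h, against 52.4, 51.8 and 46.5 (0.80, SE 0.217, limma adjusted p = 0.031). Rarg had 53.2 and 43.3 against 86.1, 68.1 and 92.9 (-0.92, SE 0.233, limma adjusted p = 0.021), Rara 61.9 and 78.5 against 142.3, 100.8 and 91.0 (-0.81, SE 0.200, limma adjusted p = 0.019), and Nr3c1 191.7 and 217.8 against 306.1, 251.5 and 265.6 (-0.58, SE 0.133, limma adjusted p = 0.012). The groups did not overlap at any of these. Each of these 4 calls ended without either 48 h library, and those of Nr1h3 and Rara also without 24 h replicate 1 and that of Nr1h3 without 24 h replicate 2, with p up to 0.31, so none of the 5 genes kept its call through all left-out fits. Without centring the calls of Rarg (0.081), Rara (0.11) and Nr3c1 (up to 0.12) also ended. Called in both 48 h libraries and no 24 h library were 17 receptor regions (6.07% of 280), 5 of them at Thrb and 3 at Rora, against 5.09% of all regions, and the reverse held for 0, against 0.608%. With lists of equal length the counts were 8 (4.21% of 190) and 4 (2.11%), against 2.99% and 2.30% of all. Kupffer identity genes summed to 5715.4 to 6142.5 tags at 48 h, against 3109.2 to 4292.6 at 24 h, and endothelial genes to 1010.2 to 1164.7, against 641.2 to 865.1. Stellate cell genes summed to 393.1 to 456.1, against 231.2 to 274.1, and hepatocyte genes to 202.0 to 226.6, against 70.2 to 108.7. T and NK cell genes overlapped, at 725.0 to 769.8 against 732.2 to 916.4. Of 8 stellate genes, 4 had a peak in the 48 h and 4 to 5 in the 24 h libraries, with none at Dcn, Lrat and Rgs5. Their part in the result was not tested.

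PBS Kupffer cells differed from 48 h macrophages at 36 of 138 shared regions, 13 higher and 23 lower, in 18 genes. This is 26.1%, against 25.6% of all 46189 regions, with 13.8% higher and 11.8% lower. The uncentred fit had 9 higher and 49 lower. The median over receptor regions was -0.14 log2. Nr3c2 had the largest gain, of 2.13 at the gene start (SE 0.177, limma adjusted p = 2.7e-13) and 2.10 inside the gene. Thrb was higher at 7 of 12 shared regions. At chr14:17903027-17903405 inside it, Kupffer cells had 34.1 and 30.7 tags, against 10.5 and 11.7 at 48 h (1.76, SE 0.335, limma adjusted p = 9.3e-05), and its gene-start region shown above had 192.4 and 159.1, against 88.9 and 99.7 (1.18). Kupffer cells were above the 48 h libraries at both. Nr3c1 had 20.9 and 30.7 at 1 region inside the gene, against 9.59 and 9.53 (1.61, SE 0.340, limma adjusted p = 0.00036), and fell at another by 1.10.

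Rara, Pparg and Rora led the losses. Rara (chr11:98933225-98933506, inside) had 12.3 and 21.1 tags in Kupffer cells, against 61.9 and 78.5 at 48 h (-1.75, SE 0.298, limma adjusted p = 1.6e-05), 1 of 3 of its regions that were lower. Pparg was lower at 3 regions and higher at 1, with 10.4 and 9.59 tags 26037 bp from the gene (chr6:115334522-115334842), against 36.6 and 51.3 (-1.72, SE 0.333, limma adjusted p = 0.00012). Rora, which activates clock genes, had 17.1 and 25.9 against 79.3 and 81.4 (-1.59, SE 0.273, limma adjusted p = 1.9e-05). Groups were apart at each. Rarb was the retinoic acid receptor that rose, with 17.1 and 19.2 against 9.59 and 7.33 (1.32, SE 0.342, limma adjusted p = 0.0034), and its call ended without 48 h replicate 2 (limma adjusted p = 0.052). Esr1 had 18 and 23 against 61.0 and 44.7 (-1.02, SE 0.302, limma adjusted p = 0.0098), and Thra, the other thyroid hormone receptor gene, 15.2 and 24.0 against 37.5 and 60.1 (-0.98, SE 0.312, limma adjusted p = 0.017). Nr4a2 had 55.0 and 71.9 against 165.6 and 131.3 (-0.92, SE 0.199, limma adjusted p = 0.00049). Rxra rose by 0.91 at a weak region (16.1 and 14.4 against 10.5 and 8.80 tags, SE 0.343, limma adjusted p = 0.045), a call lost without any 1 of the 4 libraries (p up to 0.27), without centring, under quantile normalisation and when the fit held the other repopulation groups as well. The Rxrb start region, shared with Slc39a7, had 39.8 and 95.9 against 145.5 and 129.1 (-0.84, SE 0.224, limma adjusted p = 0.0043).

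Nr1h3, Nr2f6, Nr4a1, Nr1d1, Ppard and Esrra also had regions that fell, by 0.43 to 0.80 log2. For Nr1h3 these were regions equally near Acp2 (-0.80) or Madd (-0.76). The regions given to Nr1h3 alone, its start among them, did not pass (limma adjusted p = 0.16 and 0.15). The calls of Nr2f6 and Nr4a1 held through every left-out fit, as did those of Nr3c2, Thrb, Rara, Pparg, Nr3c1 and Rora. Without 48 h replicate 1 the calls of Esr1, Nr4a2, Rxrb, Nr1h3, Nr1d1, Ppard and Esrra ended, without 48 h replicate 2 those of Thra, Nr1h3, Ppard and Esrra, and without Kupffer replicate 1 those of Thra, Rxrb, Nr1h3, Nr1d1, Ppard and Esrra, with p up to 0.41. Kupffer-only regions, called in both Kupffer libraries and neither 48 h library, numbered 20 (6.87% of 291), against 4.53% of all regions. Of these 20, 9 were at Thrb and 4 each at Nr3c1 and Nr3c2. Regions called in both 48 h libraries and no Kupffer library numbered 33 (11.3%), against 12.8% of all, with 6 at Rarb and 4 each at Esr1 and Rora. With lists of equal length the counts were 14 (7.25% of 193), against 8.35% of all, and 11 (5.70%), against 7.73% of all. Monocyte genes summed to 848.5 to 933.0 tags in Kupffer cells, against 1449.3 to 1551.7 at 48 h, and T and NK cell genes to 366.8 to 454.3, against 725.0 to 769.8. Of the 7 T and NK cell genes, 5 had a peak in each library of both groups, and Cd3e and Cd3g had none. Their part in the differences was not tested.

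**Figure D3:**
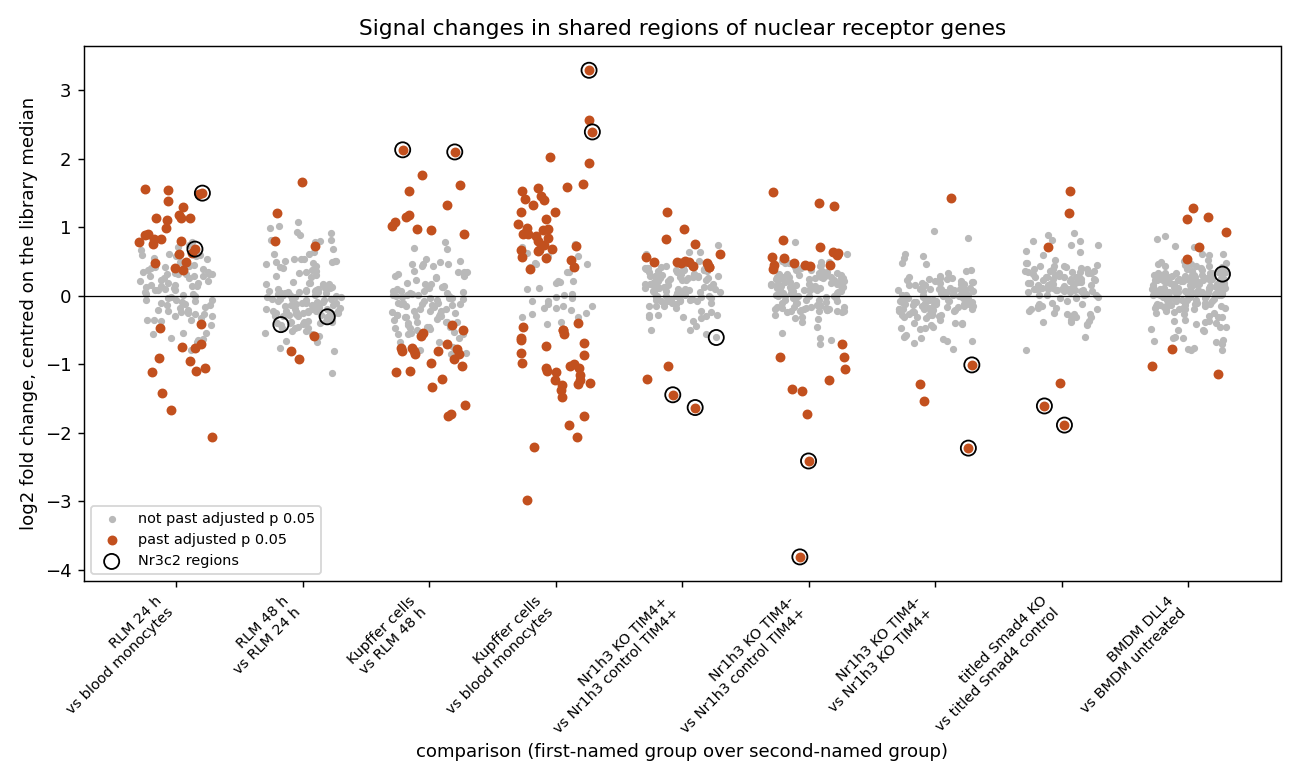
Log2 fold change (first-named group over second) of every shared receptor region (points) in the 9 comparisons, orange where the limma adjusted p was under 0.05 and grey otherwise, with Nr3c2 regions ringed. The Nr3c2 gene start lies at 2.13 in Kupffer cells against 48 h macrophages and at -3.81 in TIM4-negative Nr1h3 knockout cells against controls.

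Set against blood monocytes, which uses the same Kupffer libraries, Kupffer cells showed the widest change, at 68 of 105 shared regions in 25 genes, 37 higher and 31 lower. This is 64.8%, against 51.0% of all 37844 regions, with 25.7% higher and 25.3% lower, and the split was 13 and 31 without centring. Nr3c2 was highest again (3.29, SE 0.257, limma adjusted p = 6.4e-18, inside the gene). Rara had 12.3 and 21.1 tags, against 174.2 and 179.7 in blood monocytes (-2.98, SE 0.255, limma adjusted p = 3e-16), and 6 of its 7 regions were lower. Its gene-start region shown above had 50.2 and 78.6 tags in Kupffer cells, against 300.3 and 403.9. Pparg had 47.4 and 50.8 inside the gene (chr6:115462862-115463315), against 8.95 and 11.3 (2.57, SE 0.335, limma adjusted p = 1.3e-09). Thrb had 37.9 and 50.8 against 12.2 and 14.8 (2.03, SE 0.330, limma adjusted p = 4e-07) and rose at 3 of 3 regions. Rxra rose at 6 of 9 and fell at 1, with 91.9 and 134.2 tags at its strongest region, against 29.3 and 47.9 (1.93, SE 0.234, limma adjusted p = 1.3e-10). Kupffer and blood libraries did not overlap at any of these regions.

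Rora had 17.1 and 25.9 against 75.7 and 124.0 (-1.76, SE 0.272, limma adjusted p = 1.3e-07), and Thra 22.7 and 32.6 against 11.4 and 11.3 (1.58, SE 0.349, limma adjusted p = 0.00011). Vdr, which senses active vitamin D, had 55.9 and 57.5 against 22.0 and 28.9 (1.53, SE 0.290, limma adjusted p = 9.5e-06), and Esr1 18 and 23 against 52.1 and 113.5 (-1.48, SE 0.291, limma adjusted p = 1.8e-05). Each of these 4 genes had called regions in both directions. Nr3c1 had 70.1 and 62.3 against 16.3 and 58.5 (1.46, SE 0.295, limma adjusted p = 3e-05), Ppard 75.8 and 131.3 against 43.1 and 54.3 (1.42, SE 0.228, limma adjusted p = 3e-07), and Nr4a1 82.5 and 118.9 against 278.4 and 413.0 (-1.37, SE 0.165, limma adjusted p = 1e-10). Rarg, Ppara, Nr2f6, Rxrb, Esrra and Nr1d1 also fell at their strongest region, by 0.46 to 1.30, and Nr1h3 did so by 1.28 at a region equally near Acp2 while rising by 1.13 at chr2:91196743-91197165. Nr4a2, Nr2c2, Nr4a3, Nr1h2, Nr1d2 and Nr6a1 rose at theirs, by 0.52 to 0.99, and none of these 6 passed without centring. In this comparison 12 genes had called regions in both directions. Ppard, beside its gain, fell at its start (-1.06) and at regions inside the gene (-1.05, -1.02 and -1.22). Falls were also called at Pparg (-1.88), Nr3c1 (-0.65), Nr4a2 (-0.68) and Nr2c2 (-0.395). Calls of 18 of the 25 genes held in every left-out fit. Those of Nr4a2, Nr2c2, Nr4a3, Rxrb, Nr6a1, Esrra and Nr1d1 ended without blood replicate 1 or Kupffer replicate 1, and that of Nr6a1 also without blood replicate 2, with p up to 0.97. Called in both Kupffer and no blood library were 50 regions (18.1% of 276), against 12.8% of all, with 19 at Thrb, 6 at Rxra and 5 each at Pparg and Nr3c1. The reverse held for 36 (13%), against 15.9% of all, with 5 at Rarb and 4 at Nr6a1. With lists of equal length the counts were 36 (17.8% of 202) and 27 (13.4%), against 15.5% and 15.3% of all. Kupffer identity genes summed to 5488.0 to 6789.9 tags in Kupffer cells, against 1908.5 to 2887.5 in blood monocytes.

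**Figure D4:**
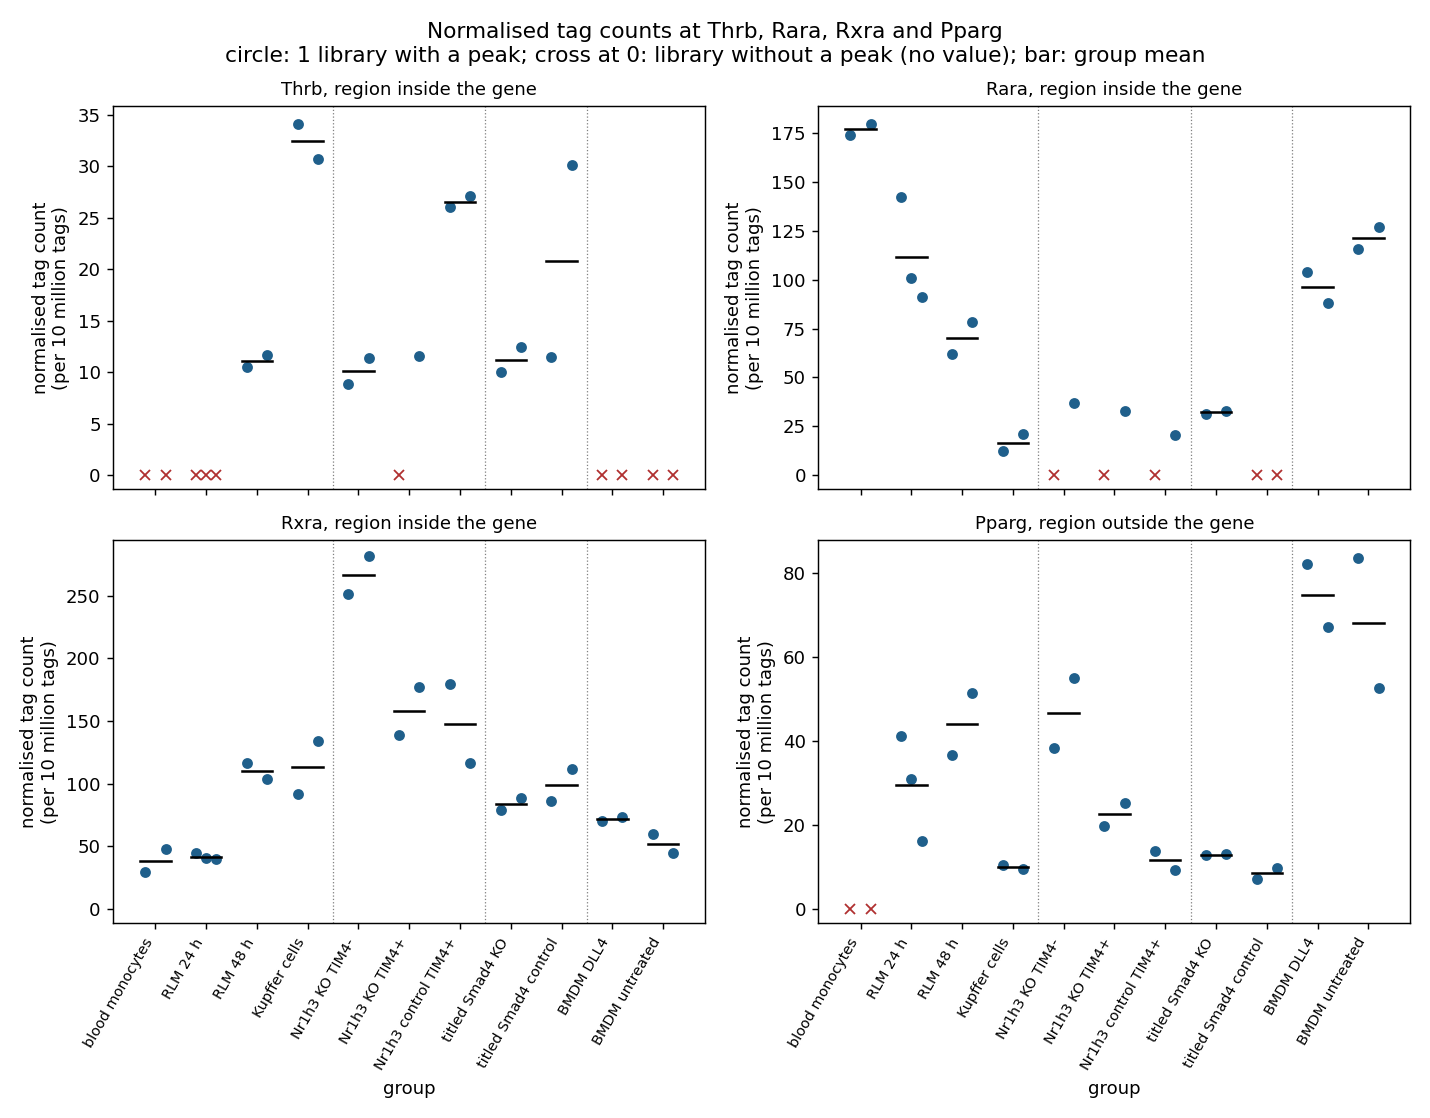
Normalised tag counts (linear axis) at 1 region each of Thrb, Rara, Rxra and Pparg in each library of the 11 groups. Circles are libraries with a peak, crosses at 0 libraries without one, and bars group means where every library has a peak. The Rara region has 12.3 and 21.1 tags in PBS Kupffer cells, against 174.2 and 179.7 in blood monocytes.

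In the LXR alpha experiment the targeted gene comes first. The labels do not give the floxed exons, and ATAC signal does not measure transcript, so the Nr1h3 peaks are no check of the deletion. At the Nr1h3 start (chr2:91194580-91195297) there were 144.9 and 202.1 tags in TIM4-negative and 111.7 and 125.6 in TIM4-positive knockout cells, against 141.1 and 93.1 in controls, and the groups overlapped. None of the 4 regions shared with controls passed in TIM4-positive (log2 0.12 to 0.41, limma adjusted p = 0.14 or above) or TIM4-negative knockout cells (-0.23 to 0.33, limma adjusted p = 0.2 or above). Another region inside the gene (chr2:91189796-91190011) was called in the knockout libraries alone. It had 23 and 41.4 tags in TIM4-negative and 20.4 and 23.2 in TIM4-positive knockout cells, and no peak in the other 19 libraries. Such a pattern, called in these 4 libraries and none of the other 19, was met by 17 of the 155039 regions (0.011%). It was noticed after the values were seen, and between TIM4-negative and TIM4-positive knockout cells the region did not pass (-0.26, limma adjusted p = 0.75).

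TIM4-positive knockout cells differed from controls at 19 of 133 shared receptor regions in 11 genes, 15 higher and 4 lower. This is 14.3%, against 8.80% of all 40224 regions, with 4.88% higher and 3.92% lower. Uncentred values gave 0 higher and 4 lower, and under quantile normalisation 6 and 4, so the 15 gains depended on the scaling. The 4 losses were at Nr3c2 and Thrb. The Nr3c2 start region, at the tag counts given above, changed by -1.63 (SE 0.160, limma adjusted p = 4.9e-21) and the inner region by -1.44. Thrb (chr14:17743695-17744043, inside) had 19.1 and 19.8 tags in knockout cells, against 61.9 and 54.1 in controls (-1.22, SE 0.245, limma adjusted p = 5.5e-05). These were the genes that held through every left-out fit, the Thrb call with p up to 0.03. Pparg had 19.8 and 25.3 against 13.9 and 9.24 (1.23, SE 0.309, limma adjusted p = 0.0026), and the call ended without control replicate 2 (limma adjusted p = 0.079) and without centring (0.16).

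The remaining gains were small or uneven, and each ended without centring. Esr1 had 17.9 and 13 against 7.52 and 11.2 (0.98, limma adjusted p = 0.035), and Nr3c1 22.3 and 34.1 against 21.4 and 16.5 (0.84, limma adjusted p = 0.039). Nr1d1 had 113.0 and 97.6 against 87.3 and 82.5 (0.61, limma adjusted p = 0.006), and Nr2f6, an orphan receptor gene, 141.7 and 136.5 against 130.7 and 102.3 (0.57, limma adjusted p = 0.0052). These groups did not overlap in deposited tags. Nr4a1 had 161.5 and 190.4 against 159.1 and 147.2 (0.50, limma adjusted p = 0.011), and Rxra 360.0 and 393.1 against 395.6 and 279.3 (0.48, limma adjusted p = 0.005), with overlap at Rxra alone of this pair. The Rara start region had 142.3 and 133.1 against 160.2 and 93.1 (0.48, limma adjusted p = 0.026), and Nr1d2 290.4 and 281.2 against 281.1 and 244.3 (0.43, limma adjusted p = 0.02), and only Rara overlapped here. All 8 calls ended without TIM4-positive knockout replicate 1. Those of Esr1, Nr3c1, Nr1d1, Nr2f6, Nr4a1 and Nr1d2 ended without control replicate 1 and those of Nr3c1, Nr2f6, Rxra, Rara and Nr1d2 without control replicate 2, and that of Nr3c1 also without TIM4-positive knockout replicate 2, with p up to 0.58. Called in both knockout and no control library were 2 regions (0.813% of 246), 1 each at Esr1 and Nr1h3, against 1.06% of all, and the reverse held for 15 (6.10%), 3 each at Thrb and Vdr, against 7.69% of all. This imbalance was not seen with lists of equal length, which gave 6 knockout-only (2.96% of 203) and 5 control-only regions (2.46%). Over all regions these shares were 3.29% and 4.01%. Kupffer identity genes summed to 4758.0 to 5744.5 tags in knockout cells, against 6349.8 to 7771.3 in controls, and endothelial genes to 501.7 to 575.5, against 878.2 to 1115.8, and their part in the result was not tested.

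TIM4-negative knockout cells, set against the same controls, differed at 26 of 153 shared receptor regions in 12 genes, 16 higher and 10 lower. This is 17.0%, against 13.7% of all 46872 regions, with 7.04% higher and 6.68% lower. Without centring the split was 44 and 6. The Nr3c2 start region changed by -3.81 (SE 0.193, limma adjusted p = 2.4e-60), the third largest absolute change of the 46872 regions, and the inner one by -2.41. Thrb was lower at 5 of 15 regions, with 8.84 and 11.4 tags at chr14:17903027-17903405, against 26.0 and 27.1 in controls (-1.72, SE 0.316, limma adjusted p = 4.6e-06). Thra had 10.0 and 12 inside the gene, against 24.9 and 19.8 (-1.36, SE 0.320, limma adjusted p = 0.00067). Knockout libraries lay under the controls at each. Pparg was higher at 3 of 18, with 38.3 and 55.0 at chr6:115334522-115334842, against 13.9 and 9.24 (1.52, SE 0.288, limma adjusted p = 8.9e-06), a region that was also lower in PBS Kupffer cells than at 48 h. Nr4a1 had 37.7 and 53.4 at 951 bp from the gene, against 15.0 and 10.6 (1.35, SE 0.284, limma adjusted p = 9.4e-05), and Rxra 12.4 and 12 at 1 inner region, against 25.4 and 19.8 (-1.23, SE 0.315, limma adjusted p = 0.0021), while 2 other Rxra regions rose. These 6 genes held through every left-out fit.

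Esr1 had 30.0 and 34.9 tags against 7.52 and 11.2 (1.31, SE 0.312, limma adjusted p = 0.00082), and the call ended without control replicate 1 (limma adjusted p = 0.092). Nr3c1 had 24.2 and 37.6 against 35.3 and 39.6, overlapping (-0.70, limma adjusted p = 0.042), and did not pass without centring. Nr2f6 had 236.2 and 213.5 against 130.7 and 102.3 (0.55, limma adjusted p = 0.0047), Nr1d1 166.7 and 142.7 against 87.3 and 82.5 (0.45, limma adjusted p = 0.041), Nr4a2 177.9 and 189.0 against 96.6 and 106.3 (0.45, limma adjusted p = 0.036) and Rara 286.9 and 312.7 against 185.7 and 151.2 (0.43, limma adjusted p = 0.027). The last 4 were higher in both knockout libraries, and none passed under quantile normalisation. Left-out fits ended the Nr3c1 and Nr2f6 calls without control replicate 2 or TIM4-negative replicate 1, the Nr1d1 call without either control or TIM4-negative replicate 1, the Nr4a2 call without control replicate 1 or either TIM4-negative library, and the Rara call without either control or TIM4-negative replicate 2, with p up to 0.56. Knockout-only regions numbered 19 (6.74% of 282), 3 of them at Rarb, against 6.59% of all, and control-only ones 5 (1.77%), 2 at Nr3c2 and 1 each at Nr3c1, Rora and Thrb, against 3.50% of all. With lists of equal length the order turned, to 5 knockout-only (2.51% of 199) and 9 control-only regions (4.52%). It turned over all regions as well, to 4.43% and 5.13%.

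Between the knockout populations, TIM4-negative cells differed from TIM4-positive cells at 5 of 137 shared receptor regions, 1 higher and 4 lower. This is 3.65%, against 2.13% of all 41830 regions, with 0.614% higher and 1.51% lower. The split was 97 and 2 without centring, the medians of the libraries being 0.75 log2 apart, and 1 and 2 under quantile normalisation. Nr3c2 changed by -2.22 at the start (SE 0.259, limma adjusted p = 4e-12), where the libraries did not overlap. The inner region passed as well (-1.01, limma adjusted p = 0.036), but its deposited tags overlapped and the call depended on the scaling, with -0.26 (limma adjusted p = 0.47) without centring and -0.95 (limma adjusted p = 0.09) under quantile normalisation. It also ended without any 1 of the 4 libraries (limma adjusted p up to 0.29). The start region's change ranked 15th of 41830 by size. Thra had 10.0 and 12 against 22.3 and 17.1 (-1.53, SE 0.317, limma adjusted p = 0.00051), Esr1 32.4 and 43.6 against 6.38 and 8.87 (1.43, SE 0.307, limma adjusted p = 0.001) and Rxra 12.4 and 12 against 16.6 and 19.8 (-1.28, SE 0.314, limma adjusted p = 0.0067). The Thra call ended without TIM4-positive replicate 1 (limma adjusted p = 0.19), the Esr1 call without TIM4-negative replicate 2 (0.12) and the Rxra call without any 1 of the 4 libraries (up to 0.12), without centring and under quantile normalisation. Regions called in both TIM4-negative and no TIM4-positive library numbered 32 (12.1% of 264), against 10.9% of all, with 5 at Vdr and 4 each at Rora and Thrb. The reverse held for 2 (0.758%), 1 each at Nr3c2 and Pparg, against 0.560% of all. The order turned when lists were cut to equal length, to 5 (2.48% of 202) and 8 (3.96%), against 2.92% and 2.62% of all. Kupffer identity genes summed to 7893.3 to 8089.8 tags in TIM4-negative and 4758.0 to 5744.5 in TIM4-positive cells. These are deposited tags without centring, and the other marker lists were higher in TIM4-negative cells too. Dendritic cell genes, for example, summed to 1397.2 to 1527.9 against 741.0 to 795.7, and monocyte genes to 744.3 to 769.0 against 536.2 to 592.4. Their part in the result was not tested.

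In the Smad4 experiment, 13 regions belonged to Smad4 itself, 5 of them open in these libraries. None was called in both libraries of 1 group and neither of the other. The 2 regions called in every library did not pass (log2 -0.19 and 0.12, limma adjusted p = 0.8 and 0.83). These regions thus say nothing on whether the titles or the strain fields are right. Cells titled knockout differed from those titled control at 6 of 126 shared receptor regions in 5 genes, 3 higher and 3 lower. This is 4.76%, against 3.09% of all 40053 regions, with 1.58% higher and 1.51% lower, and the split was 0 and 3 without centring. The Nr3c2 start region was lower in cells titled knockout, by -1.89 (SE 0.174, limma adjusted p = 5.2e-14), and the inner region by -1.61, a call that ended without control-titled replicate 2 (limma adjusted p = 0.094). At the start, the change was the 32nd largest of 40053. Esr1 (chr10:4612753-4613020, inside) had 25.1 and 32.3 tags in cells titled knockout, against 10.3 and 13.7 (1.53, SE 0.284, limma adjusted p = 0.00012). Nr4a1 had 116.1 and 149.5 against 90.8 and 113.2 (0.71, SE 0.139, limma adjusted p = 0.00031). Both held through the left-out fits but not without centring (limma adjusted p = 0.077 for Esr1 and 0.69 for Nr4a1).

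Thrb had 6.70 and 11.2 tags in cells titled knockout, against 25.4 and 31.7 in those titled control (-1.26, SE 0.297, limma adjusted p = 0.0043), and Pparg 22.3 and 27.9, against 10.9 and 15.9 (1.21, SE 0.285, limma adjusted p = 0.0047). The groups were apart at both. Both calls ended without knockout-titled replicate 1 or either control-titled library (p up to 0.1), and that of Pparg without centring (limma adjusted p = 0.31). Regions called in both knockout-titled and no control-titled library numbered 5 (1.98% of 253), 2 at Rarg, against 1.24% of all, and the reverse held for 14 (5.53%), 3 each at Nr3c2 and Rora, against 6.98% of all. The order turned when lists were cut to equal length, to 10 knockout-titled-only (5.08% of 197) and 5 control-titled-only regions (2.54%). Over all regions these shares were 3.35% and 3.77%. Kupffer identity genes summed to 2418.6 to 3517.9 tags in cells titled knockout, against 4233.1 to 5399.6 in those titled control, and their part in the result was not tested.

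With DLL4, cultured macrophages differed from untreated ones at 9 of 201 shared receptor regions in 8 genes, 6 higher and 3 lower. This is 4.48%, against 3.89% of all 71997 regions, with 2.37% higher and 1.52% lower. The split was 6 and 1 without centring and 4 and 0 under quantile normalisation. Rora (chr9:68858910-68859204, inside) had 50.9 and 59.5 tags with DLL4, against 22.1 and 21.0 without (1.28, SE 0.250, limma adjusted p = 0.00022). The Rxra start region (chr2:27676830-27677350) had 161.3 and 125.9, against 66.3 and 78.8 (0.94, SE 0.156, limma adjusted p = 7.2e-06). The groups were apart at both, and both calls ended without untreated replicate 1 (limma adjusted p = 0.082 and 0.12). The Nr1h3 start region had 61.0 and 52.7 against 43.6 and 25.4 (0.72, SE 0.227, limma adjusted p = 0.048), a call that ended without any 1 of the 4 libraries (up to 0.5) and in 6 of 7 other alternatives: no centring, quantile normalisation, a pseudocount of 10, stricter peaks, merging at 100 bp and the replicate block (up to 0.13).

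Thrb had 22.5 and 26.7 tags with DLL4, against 9.21 and 11.4 (1.15, SE 0.327, limma adjusted p = 0.024), and Nr3c1 33.4 and 31.5, against 17.2 and 11.4 (1.12, SE 0.302, limma adjusted p = 0.016). Ppard had 15.3 and 11.6 against 24.6 and 35.9 (-1.14, SE 0.310, limma adjusted p = 0.017), and Nr1h2, the LXR beta gene, 20.3 and 8.89 against 27.6 and 28.0 at 7096 bp from the gene (-1.02, SE 0.315, limma adjusted p = 0.041). Nr1h4, the bile acid receptor gene, had 40.7 and 30.8 against 72.5 and 49.0 (-0.77, SE 0.220, limma adjusted p = 0.025). None of the groups overlapped in deposited tags. All 5 calls ended without untreated replicate 1 and without DLL4 replicate 2. Those of Thrb and Nr3c1 also ended without DLL4 replicate 1, and those of Ppard, Nr3c1 and Nr1h2 without untreated replicate 2, with p up to 0.61. Under quantile normalisation the calls of Thrb, Ppard, Nr1h2 and Nr1h4 ended, and those of Nr1h2 and Nr1h4 also without centring. Nr3c2 did not pass (0.32, SE 0.118, limma adjusted p = 0.11). Regions called in both DLL4 and no untreated library numbered 5, and the reverse 5 (1.52% of 328 each), against 2.10% and 2.00% of all. Lists of equal length gave 6 and 6 (3.43% of 175 each), against 2.70% and 2.54% of all.

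Regions of known target and partner genes were tallied in the same fits, from lists chosen with earlier results of these data known. Among 15 LXR target genes, 8 of 78 shared regions fell and 2 rose in TIM4-positive Nr1h3 knockout cells, led by Scd1 (-2.42, limma adjusted p = 6.3e-17), a fatty acid desaturase gene, and Abca1 (-2.39, limma adjusted p = 1e-25), the cholesterol exporter gene. In TIM4-negative cells 8 of 79 fell and 3 rose, led by Abca1 (-3.71, limma adjusted p = 2e-41) and the apolipoprotein gene Apoc1 (-1.39, limma adjusted p = 4.3e-12), and between the populations 5 of 78 were lower in TIM4-negative cells and 0 higher (Abca1 -1.50, Abcg1 -1.21). In Kupffer cells against 48 h macrophages 7 of 75 rose and 5 fell (Scd1 2.70, Abca1 2.49), at 24 h against blood 18 of 51 rose and 2 fell (Abca1 2.06, Arl4c -1.78), at 48 h against 24 h 6 of 66 rose and 1 fell (Abca1 1.21, Pltp 0.98), and in Kupffer cells against blood 18 of 53 rose and 10 fell (Scd2 3.00, Abca1 2.28). In cells titled Smad4 knockout 2 of 75 rose and 4 fell (Abca1 -1.22, Mylip 0.97), and with DLL4 5 of 86 rose and 2 fell (Abcg1 1.63, Arl4c -1.17). The background of these counts, and of those for the lists that follow, is the share of all regions higher and lower. At 24 h against blood it was 16.7% and 9.33%, and at 48 h against 24 h 1.92% and 3.53%. Kupffer cells had 13.8% and 11.8% against 48 h, and 25.7% and 25.3% against blood. Against controls, TIM4-positive knockout cells had 4.88% and 3.92% and TIM4-negative ones 7.04% and 6.68%, with 0.614% and 1.51% between them. Titled Smad4 had 1.58% and 1.51%, and DLL4 2.37% and 1.52%.

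Of 12 PPAR target genes, 11 of 36 regions rose and 1 fell at 24 h against blood, led by the fatty acid transporter gene Cd36 (2.86) and the lipid droplet gene Plin2 (1.62). Against blood, Kupffer cells had 13 of 31 higher and 6 lower (Cd36 2.87, Acot1 1.83), and against 48 h macrophages 3 of 42 higher and 6 lower (Pdk4 1.74, Plin2 -1.27). At 48 h against 24 h it was 2 and 1 of 43 (Pdk4 1.61, Acadl -1.37). TIM4-positive knockout cells had 5 of 36 higher and 0 lower (Cd36 1.13, Angptl4 1.13) and TIM4-negative ones 5 of 38 higher and 3 lower (Angptl4 1.08, Pdk4 -1.04), with 0 of 36 changed between them. Cells titled Smad4 knockout had 1 of 40 higher (Angptl4 1.08), and DLL4 raised 2 of 52 (Angptl4 0.63, Plin2 0.55). Of 10 glucocorticoid receptor target genes, 4 of 50 regions were higher and 18 lower in Kupffer cells than in blood (Zbtb16 -2.51, Tsc22d3 -2.47), 7 and 9 of 64 at 24 h against blood (Zbtb16 -1.88, Fkbp5 -1.57), and 4 and 9 of 60 in Kupffer cells against 48 h (Cd163 -1.48, Fkbp5 1.33). None of 62 moved at 48 h against 24 h. TIM4-positive knockout cells had 7 of 56 higher and 0 lower (Zbtb16 1.70, Dusp1 0.60), and TIM4-negative ones 9 of 68 higher and 6 lower (Cd163 -1.85, Zbtb16 1.72). Cd163 was also the 1 of 61 regions lower in TIM4-negative than in TIM4-positive cells (-1.59). In cells titled Smad4 knockout 0 of 54 changed, and with DLL4 1 of 95 fell (Klf9 -0.64). Regions of all these lists were counted in the centred fit only. Without centring, the receptor regions higher in TIM4-positive knockout cells than in controls went from 15 to 0.

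Retinoic acid and vitamin D target genes, 9 in number, had 9 of 18 regions lower and 0 higher in Kupffer cells than at 48 h (Cyp27b1 -1.25, Tgm2 -1.23), beside the losses at Rara. They had 5 of 16 higher and 1 lower at 24 h against blood (Tgm2 1.35, Dhrs3 1.08), 1 and 1 of 20 at 48 h against 24 h (Dhrs3 -0.89, Tgm2 0.78), and 4 and 4 of 16 in Kupffer cells against blood (Cyp26b1 1.67, Dhrs3 1.26). Cyp26b1, which breaks down retinoic acid, was lower in TIM4-positive knockout cells (-1.04, 1 of 16 lower and 0 higher) and in TIM4-negative ones (-1.09, 1 of 20 lower and 2 higher), with 0 of 17 changed between them. Cells titled Smad4 knockout had 1 of 19 higher (Tgm2 0.55), and DLL4 changed 0 of 21. Of 14 clock genes, 9 of 45 regions were lower and 1 higher in Kupffer cells than at 48 h (Hlf -1.56, Bhlhe40 -1.51), 14 of 53 higher and 2 lower at 24 h than in blood (Bhlhe41 1.63, Bhlhe40 1.25), 3 of 52 lower at 48 h than at 24 h (Bhlhe40 -1.35, Arntl -0.49), and 7 of 40 higher and 10 lower in Kupffer cells than in blood (Tef 1.59, Hlf -1.31). TIM4-positive knockout cells had 6 of 38 higher (Bhlhe41 2.06, Tef 0.50), TIM4-negative ones 6 of 44 (Bhlhe41 1.42, Nfil3 0.99) and 1 of 39 lower than TIM4-positive ones (Bhlhe41 -0.87). Cells titled Smad4 knockout had 2 of 41 higher (Bhlhe41 0.91), and DLL4 gave 2 of 92 higher and 1 lower (Arntl 1.19, Npas2 -1.11).

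Over 20 coregulator genes, 10 of 97 regions were higher and 12 lower in Kupffer cells than at 48 h, 17 and 21 of 78 against blood, 11 and 10 of 92 at 24 h against blood (Ncoa1 1.43), 2 and 2 of 99 at 48 h against 24 h (Ncoa1 1.20), 6 and 2 of 95 in TIM4-positive and 9 and 4 of 112 in TIM4-negative knockout cells, and 0 of 97 between them. Cells titled Smad4 knockout had 3 higher of 95, and DLL4 gave 2 higher and 4 lower of 165 (Nrip1 1.39). The other 18 nuclear receptor genes had few shared regions, from 4 to 23. Hnf4a, a hepatocyte receptor gene, was lower at 24 h (-1.40) and in Kupffer cells (-0.98) than in blood and lower in Kupffer cells than at 48 h (-0.89), and higher in TIM4-positive (0.96) and TIM4-negative (0.97) knockout cells than in controls. Rxrg was lower in Kupffer cells than in blood (-0.99), Nr2f1 was higher in cells titled Smad4 knockout (1.13), and Nr5a1 was lower with DLL4 (-1.09).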

How the data were processed

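Each library came as 1 peak list. Per the submitters' processing notes, Bowtie2, HOMER and the mm10 build were used; versions are not given in the sources used here. Per the file headers, peaks of 200 bp were called per library at a false discovery rate of 0.001, with 4-fold enrichment over the local 10 kb and a local p of 0.0001, and the deposited normalised tag count is a signal scaled to 10 M tags. Tag totals of 10.43 to 18.36 M and thresholds of 8 to 11 tags, counted before that scaling, limit weak regions.

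From these lists 1604681 peaks were merged and assigned to 21631 RefSeq protein-coding genes, leaving out 1205 peaks on other sequences. Ties counted under each gene. A region with no peak in a library has no value, so the tests cover shared regions only. limma 3.58.1 in R 4.3.3 was fitted on log2(tag count + 1) with trend, median-centred libraries, no replicate block and a spread pooled over regions, and was checked on simulated data. Each comparison used only its own groups. A gene's strongest region is the one with the largest absolute change among those that passed; values are given for at most 12 genes a comparison. The 30 members and all lists of target, partner and marker genes were chosen with earlier results of these data known. Alternatives tried were no centring, quantile normalisation, a pseudocount of 10, peaks of at least 20 tags, merging at 100 bp of overlap, assignment within 10000 bp, lists of equal length, all libraries of an experiment in the fit, the replicate block, and leaving out each library. Results for some genes of the target, partner and marker lists are not reported here.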

Additional observations from a re-analysis of the deposited data

How the results depend on the processing

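Of 1151 refits of the 106 gene calls, 944 kept direction and threshold, 206 kept the direction and lost the threshold, and 1 turned: Rxrb in Kupffer cells against blood monocytes, at 0.011 log2 without Kupffer replicate 1 and -1.06 without replicate 2, against -0.56. Leave-one-out fits leave 1 group with 1 library, assumed to vary like the others, unless the library left out was 1 of the 3 at 24 h. Over them, counts of changed receptor regions ranged from 23 to 50 (24 h against blood), 0 to 16 (48 h against 24 h), 22 to 43 (Kupffer against 48 h), 51 to 61 (Kupffer against blood), 6 to 20 (TIM4-positive knockout against control), 15 to 20 (TIM4-negative against control), 2 to 3 (between knockout populations), 3 to 6 (titled Smad4) and 0 to 7 (DLL4).

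Without centring the counts were 58 for Kupffer against 48 h, 44 against blood, 4 and 50 for TIM4-positive and TIM4-negative knockout cells, 99 between them and 3 for titled Smad4. Quantile normalisation gave 10, 17, 3 and, for DLL4, 4. Peaks of at least 20 tags left 22, 42, 11 (TIM4-negative), 1 (between populations) and 2 (titled Smad4). All libraries in the fit gave 12 for 48 h against 24 h. With lists of equal length, regions per library were 142.5 at 48 h, 146 with DLL4 and 149 without. Same-numbered libraries were not paired (correlations of deviations of -0.038 to 0.061); the replicate block gave 24, 25, 9 and 8 changed regions in the LXR alpha and DLL4 comparisons, against 19, 26, 5 and 9.

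Over all regions, changed counts moved by over 1.5 times as follows. For 48 h against 24 h, 2637 became 1357 without centring and 1448 with quantile normalisation; TIM4-positive, 3538 became 1466 without centring and 1974 with stricter peaks; TIM4-negative, 6433 became 13505 and 3080. Between the populations, 889 became 28460 without centring, 467 with quantile normalisation, 1808 with a pseudocount of 10 and 541 with stricter peaks. Titled Smad4 had 1237, against 530, 667 (quantile) and 355, and DLL4 2801, against 1151 (quantile). Shared regions only are tested, so losses below the calling threshold are seen as missing peaks, not as values. That threshold was 8 to 11 tags before scaling to 10 M tags, so scaled values of called peaks can lie lower.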
